A study of Mus musculus with 21 samples.

Results

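The data described here are 5 replicate lists of crosslink sites of the RNA-binding protein PTBP1 in mouse B cells, set against one another and against a pooled list that the authors called on the summed replicates. The 5 lists were the replicate site lists of the PTBP1 iCLIP experiment, which is 5 of the 21 samples of the series, and no site was left out of any list. They held 6211 sites in replicate 3, against 17573, 28829, 45505 and 23100 sites in replicates 1, 2, 4 and 5, and the pooled list held 244659. Replicate 3, the smallest list, is set against the other 4 throughout.

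Per the labels, the cells were splenic B cells of female C57BL/6 mice, isolated by magnetic removal of other cells and cultured for 48 h with lipopolysaccharide (LPS), a component of the bacterial outer membrane that makes mouse B cells divide. The genotype field of these samples gives no allele, and 30000000 cells entered each immunoprecipitation. All 5 samples belong to 1 group, so there is no contrast between conditions and no p-value is given, and no control immunoprecipitation is analysed here. The labels do not say whether the replicates came from separate cultures or animals, so the spread between them may be technical. The other 16 samples of the series are mRNA libraries of sorted germinal centre B cells. The 8 of them from control mice (C57BL/6, genotype CD79a+/+ Ptbp1fl/fl, 4 light zone and 4 dark zone libraries from pools of mice) serve below only as a measure of how much RNA a gene makes in B cells, and these are other cells than those cultured with LPS.

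In iCLIP (individual-nucleotide crosslinking and immunoprecipitation), ultraviolet light joins a protein to the RNA it touches, the protein is pulled down with an antibody, and the RNA attached to it is copied into cDNA. The copying enzyme tends to stop at the crosslinked base, so the end of each cDNA marks a position on 1 strand of the genome. Each cDNA carries a barcode with 4 random bases, so that copies of 1 molecule are counted once, which allows up to 256 distinct molecules at a position in a library. The deposited value of a site is this cDNA count, signed by strand, and a site was kept in a list if it passed a false discovery rate (FDR) under 0.05 within 15 nucleotides (nt). A list therefore holds only called sites, and a gene or position that is not in a list may still have had cDNAs there.

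PTBP1, polypyrimidine tract binding protein 1, is an RNA-binding protein of the nucleus and cytoplasm that recognises runs of U and C in introns and untranslated regions. It is best known for keeping alternative exons out of mRNA, among them an exon of its paralogue PTBP2, and for favouring the PKM2 form of pyruvate kinase. In B cells it has been linked to proliferation and to the germinal centre response.

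Sequences around a small part of the sites were set side by side for replicate 3 and the other lists. No genome was used, so sequence could be read only where a site fell in a RefSeq promoter window of 300 bases (250 before to 50 after a gene's start, build GRCm38.p6). There were 32851 such windows, of which 229 held a listed site, with 728 positions in all. Each sequence below is 51 bases long on the strand of the site, from RefSeq, 5′ to 3′, with the crosslink site at base 26. Capitals mark matches to TCTT, TTCT or CTCT, pyrimidine motifs of the kind PTBP1 binds. The motifs were searched on the strand of the site only, and they may overlap one another. The first 5 were chosen for high pooled counts among positions in at least 3 of replicates 1, 2, 4 and 5 and not in replicate 3. Each is from a different promoter window, and not every position was open to the choice, so they are examples and not a ranking. They lie upstream of Polg (a transfer RNA, chr7:79466430-79466480, plus strand), at H2bc15 (chr13:21754074-21754124, plus), upstream of Nos1ap on the other strand (chr1:170589875-170589925, plus), at H2bc8 (chr13:23571370-23571420, plus) and at H2ac4 (chr13:23751059-23751109, plus).
Polg: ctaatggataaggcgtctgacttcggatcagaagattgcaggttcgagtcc
H2bc15: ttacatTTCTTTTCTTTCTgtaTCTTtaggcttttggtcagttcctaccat
Nos1ap: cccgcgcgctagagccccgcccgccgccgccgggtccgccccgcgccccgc
H2bc8: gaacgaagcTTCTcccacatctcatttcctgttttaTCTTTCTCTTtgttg
H2ac4: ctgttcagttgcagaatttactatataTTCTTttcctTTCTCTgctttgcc

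The other 5 were chosen for high cDNA counts in replicate 3, within the same limits. They too are examples from different windows and not a ranking. They lie upstream of Stx11 on the other strand (chr10:12964284-12964334, plus strand), upstream of Kctd15 on the other strand (chr7:34654410-34654460, plus), upstream of Hmces on the other strand (chr6:87913892-87913942, minus), before the start of Gm32287 in a long non-coding RNA gene of the other strand (chr2:167778053-167778103, plus) and before the start of Adam19 (chr11:46055902-46055952, plus).
Stx11: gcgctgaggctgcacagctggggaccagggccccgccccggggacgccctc
Kctd15: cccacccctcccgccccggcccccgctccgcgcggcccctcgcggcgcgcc
Hmces: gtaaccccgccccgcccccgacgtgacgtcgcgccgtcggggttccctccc
Gm32287: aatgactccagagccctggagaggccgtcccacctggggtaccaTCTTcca
Adam19: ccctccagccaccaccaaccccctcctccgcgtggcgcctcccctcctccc
The 3 histone gene sequences of the first set held 4 to 6 motif matches each, and the sequence at Polg and that at Nos1ap held none. Of the replicate 3 set, the sequence at Gm32287 held 1 match and the other 4 held none.

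The printed sites differed in which lists held them. The position at H2bc15 had 0 cDNAs in replicate 3, against 1, 1, 8 and 6 in replicates 1, 2, 4 and 5. The position at Stx11 had 49 cDNAs in replicate 3, against 0, 0, 22 and 2 in replicates 1, 2, 4 and 5. The position at Gm32287 had 11 cDNAs in replicate 3, against 13, 10, 18 and 11 in replicates 1, 2, 4 and 5, and was in every list. Per 10000 cDNAs of the list this was 8.43 in replicate 3, against 1.93 to 4.22 in the other 4.

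Over all sites in promoter windows, replicate 3 had the fewest uridines (T in these DNA letters) and the fewest pyrimidine motifs of the 5 lists. The base at the site was T in 27.1% of 59 sites in replicate 3 (95% Wilson interval 17.4 to 39.6), against 53.6%, 52.1%, 54.3% and 55.3% of 84, 71, 153 and 94 sites in replicates 1, 2, 4 and 5. In the pooled list it was T in 63.4% of 718 sites, and T made up 23.1% of the bases of all promoter windows. A motif lay within 15 nt of 18.6% of the sites in replicate 3 (interval 10.7 to 30.4), against 50.0%, 57.7%, 56.9% and 38.3% in replicates 1, 2, 4 and 5. Of all windows of 31 bases in these promoters, on both strands, 30.2% held a motif. The interval of replicate 3 holds this value, and so does that of replicate 5 (29.1 to 48.4). The shares of the other 4 lists and of the pooled list (64.6%) were above it when all sites were counted.

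Pyrimidines made up 57.2% of the 31 bases in replicate 3, against 62.3%, 67.4%, 64.1% and 65.7% in replicates 1, 2, 4 and 5. The windows of replicate 3 held 41.1% C and 31.7% G, against 30.0% to 31.9% C and 21.2% to 23.8% G in the other 4 lists. Many of these sites lie in the same promoter, and with 1 site per promoter, the one with the most cDNAs, a motif was near 15.6% of 32 sites in replicate 3, against 25.6% to 46.4% in the other 4 lists, the lowest of them below the 30.2% of promoters at large. With each list cut to its 6211 sites of most cDNAs, the T share of replicate 2 was 28.0% and a motif was near 5 of its 25 sites, close to replicate 3. Promoters are a small part of the sites, and introns, where PTBP1 mostly binds, could not be read.

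The replicate lists differed in size by 7.33 times in sites and by 6.32 times in cDNAs. They held 13055 cDNAs in replicate 3, against 30782, 51904, 82478 and 41374 in replicates 1, 2, 4 and 5, and 432167 in the pooled list. Replicate 3 had 2.10 cDNAs per site, against 1.75, 1.80, 1.81 and 1.79 in replicates 1, 2, 4 and 5. The share of sites with a single cDNA was 75.8% in replicate 3 and 72.4% to 77.0% in the other 4. Sites of 10 or more cDNAs held 33.2% of the cDNAs of replicate 3, against 18.6% to 22.7% in the other 4 lists. The cDNAs of replicate 3 were thus more concentrated on tall sites. The tallest sites reached 223 cDNAs in replicate 3, against 246, 247, 232 and 234 in replicates 1, 2, 4 and 5, near the limit of 256, so differences between the tallest positions may be compressed.

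A position rarely returned in several lists. Of 99441 distinct positions, 734 were in all 5 lists, 1483 in 4, 2813 in 3, 8766 in 2, and 85645 in a single list. The pooled count at each of the 734 shared positions was the sum of the 5 replicate counts, and at no position that the pooled list holds was its count below the sum. Of the pooled sites, 151942 (62.1%) were in no replicate list, with a median of 1 cDNA. In replicate 3, 38.5% of sites were also in another list (Wilson interval 37.3 to 39.7), against 32.6%, 29.4%, 23.6% and 35.6% in replicates 1, 2, 4 and 5. This order depended on list length. With every list cut to its 6211 tallest sites, the share was 25.9% in replicate 3 and 43.7% on average in the other 4, with ties among low counts broken at random.

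**Figure D1:**
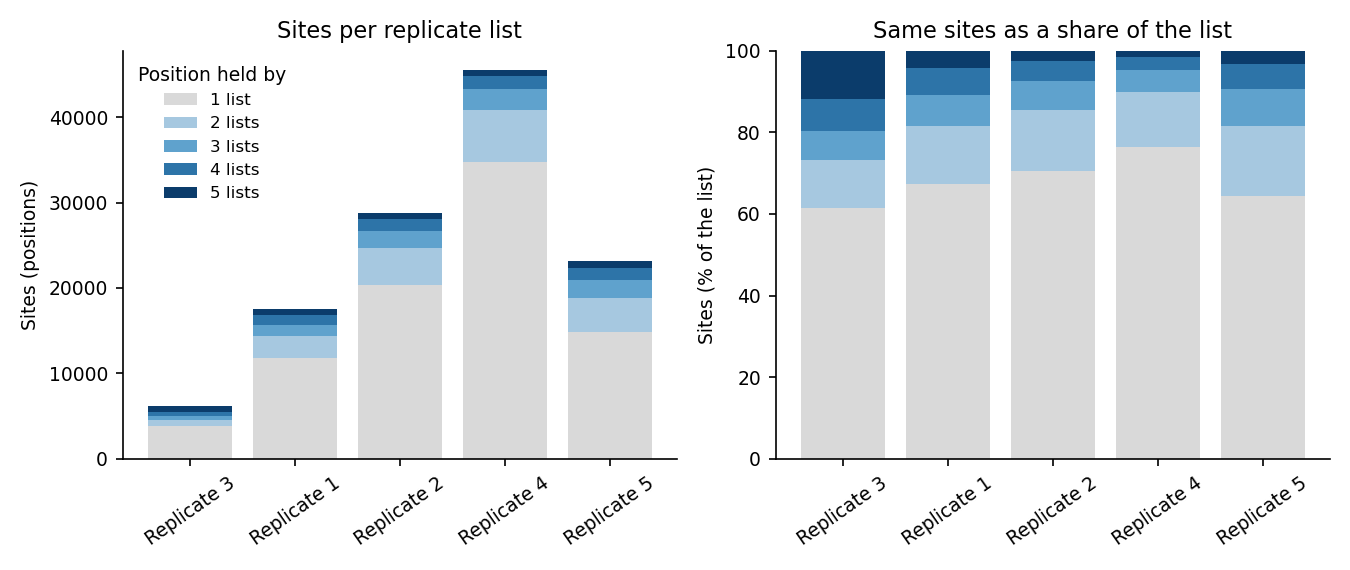
Sites of each replicate list by the number of replicate lists that hold the same position and strand, as a number of sites (left) and as a share of the list (right). Replicate 3 is the smallest list at 6211 sites and holds the largest share of positions found in all 5 lists, since the same 734 positions are counted in each bar.

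Height separated the sites that returned from those that did not. Among sites of 10 or more cDNAs, 96.4% of 165 in replicate 3 were also in another list, against 100%, 98.2%, 95.6% and 100% of 216, 450, 678 and 308 in replicates 1, 2, 4 and 5. Allowing 15 nt between sites gave 52.5% for all sites of replicate 3, against 52.9%, 53.7%, 46.8% and 59.1% in replicates 1, 2, 4 and 5. Matched in this way, replicate 3 was within the range of the other lists. When sites within 15 nt were joined into clusters, 281 of 27725 clusters held sites of all 5 lists and 22165 held sites of 1 list only. The clusters of all 5 lists held 33.0% of the cDNAs, and 28.8% of these clusters were in protein-coding genes, against 81.9% of the clusters of 1 list.

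Replicate 3 also had the smallest share of sites kept in the pooled list. It was 85.7% (Wilson interval 84.8 to 86.5), against 93.3%, 94.9%, 95.5% and 95% in replicates 1, 2, 4 and 5. The pooled list was called on the same cDNAs, so this describes the calling and is no independent check. In protein-coding genes 78.9% of the sites of replicate 3 were in the pooled list, against 92.8% to 95.6% in the other 4, and outside genes 93.1%, against 91.9% to 93.4%. Of the 891 sites of replicate 3 that the pooled list did not hold, 89.1% had 1 cDNA. Among sites of 10 or more cDNAs, 99.4% of those of replicate 3 were in the pooled list, against 99.2% on average in the other 4. Over all 5 lists, 9 sites of 20 or more cDNAs were missing from the pooled list, 5 in small RNA and 4 in ribosomal RNA. The tallest was chr7:111076176 on the minus strand, with 108 cDNAs in replicate 4, in the snoRNA within Eif4g2.

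Asked the other way round, replicate 3 missed most of what the other 4 lists shared. Of 1726 positions in replicates 1, 2, 4 and 5 together, 42.5% were in replicate 3. For replicates 1, 2, 4 and 5 the share of positions of the 4 remaining lists was 71.3%, 90.4%, 94.5% and 90.8%. Because the pooled count is at least the sum of the listed counts, it shows how many cDNAs of replicate 3 lay unlisted at the 992 missing positions. There were 0 at 834 of them, 1 at 110, and 2 or more at 48, with 14 the most. Most of the missing positions thus had no cDNA in replicate 3 rather than cDNAs below the calling threshold, and how far its lower depth accounts for this was not tested.

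Replicate 3 held fewer of its cDNAs in protein-coding genes, and more in ribosomal RNA and outside genes, than any other list. Protein-coding genes held 36.8% of the cDNAs of replicate 3 (Wilson interval 35.9 to 37.6), against 55.8% ± 3.47 in the other 4 (SD, n = 4 lists, range 52.1 to 60.4). Positions in no RefSeq gene on their strand held 32.1% in replicate 3 (31.3 to 32.9), against 14.8% ± 1.35 (13.1 to 16.1). Ribosomal RNA, the RNA of ribosomes and the most abundant in cells, held 20.4% in replicate 3 and 10.7% ± 2.88 in the other 4 (7.16 to 14). All 3 of these values of replicate 3 lay outside the range of the other 4 lists. All Wilson intervals here cover counting error only.

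Small and transfer RNAs went the other way. Small non-coding RNA held 3.36% of the cDNAs of replicate 3, against 14.1%, 6.88%, 5.69% and 6.94% in replicates 1, 2, 4 and 5. Transfer RNA (tRNA) held 2.39% in replicate 3, against 6.62%, 2.79%, 4.87% and 3.95%. Long non-coding RNA genes held 4.08% in replicate 3 and 4.27% ± 0.431 in the other 4. Replicate 3 was lowest in small RNA and tRNA, with replicate 2 close to it in tRNA, and was within the range of the others in long non-coding RNA. Summed over ribosomal, mitochondrial, transfer and small RNA, the share was 26.7% in replicate 3 and 24.0% ± 3.03 in the other 4, so the differences lay between these classes rather than in their total. Of the pooled list, 72.8% of the cDNAs lay in protein-coding genes, more than in any replicate list.

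**Figure D2:**
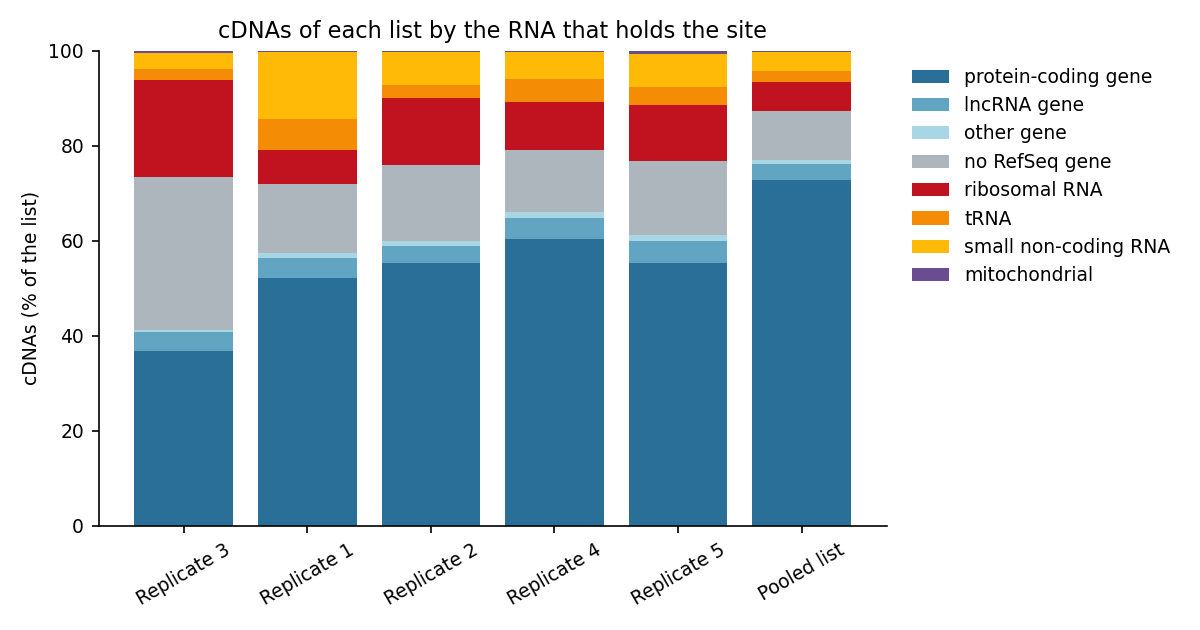
Share of the cDNAs of each list, in percent, by the class of RNA that holds the site on its strand, for replicate 3, the other 4 replicates and the pooled list. Replicate 3 has 36.8% in protein-coding genes, against 52.1% to 60.4% in the other replicates, and 32.1% in no RefSeq gene, against 13.1% to 16.1%.

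The 10 tallest of the 734 shared positions were in ribosomal RNA, in 1 small nucleolar RNA and at 1 position outside genes. The highest, chr17:39848099 on the plus strand in the 18S ribosomal RNA copy Rn18s-rs5, had 202 cDNAs in replicate 3, against 173, 247, 232 and 170 in replicates 1, 2, 4 and 5. The highest small RNA position, chr7:111076125 on the minus strand in a snoRNA inside the translation factor gene Eif4g2, had 64 cDNAs in replicate 3, against 246, 228, 212 and 222. Per 10000 cDNAs of the list, the ribosomal position came to 155 in replicate 3, against 28.1 to 56.2 in the other 4, and the snoRNA position to 49.0, against 25.7 to 79.9. Scaled in this way, the ribosomal position was highest in replicate 3 and the snoRNA position was within the range of the others. Raw counts near the limit of 256 may be compressed in the larger lists. Another pattern stood at chr17:39847491 on the plus strand, also in Rn18s-rs5, with 223 cDNAs in replicate 3, against 4, 182, 169 and 13. Replicates 1 and 5, the low ones, share a run name in the file headers, which differs from those of the other 3, and a part of the run in this was not tested.

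**Figure D3:**
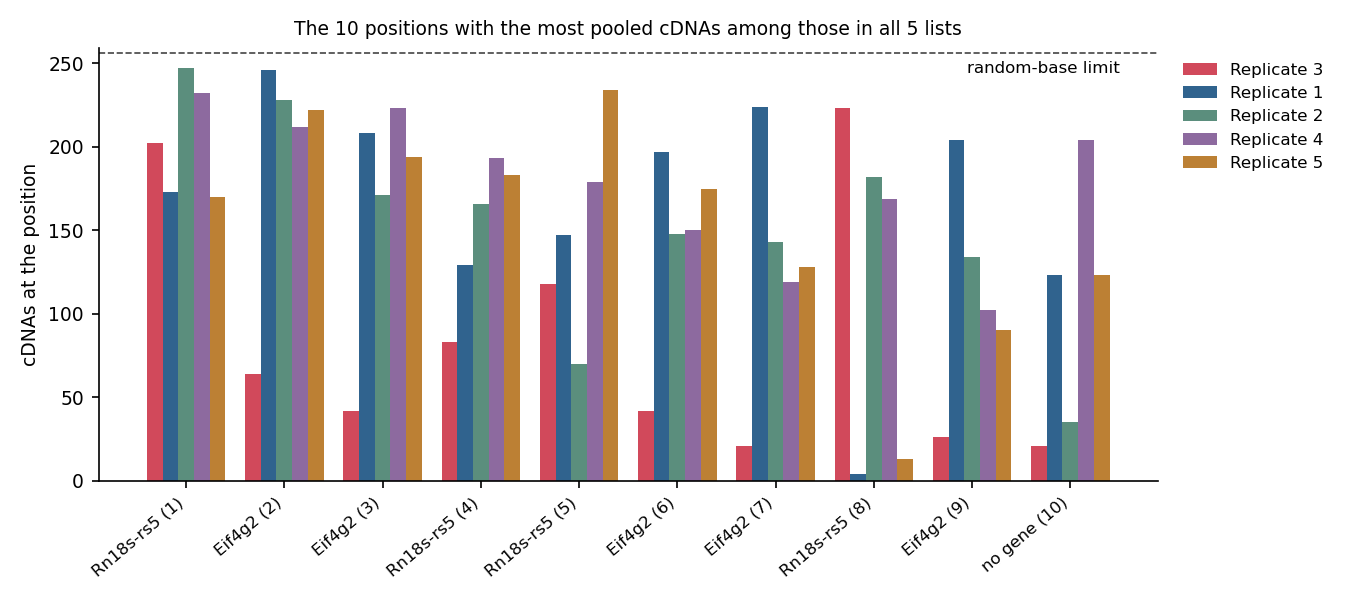
Number of cDNAs, not scaled to the size of the list, at the 10 positions with the most pooled cDNAs among the 734 in all 5 replicate lists, in order of pooled count, with 1 bar per replicate. The label Eif4g2 marks 5 positions in the snoRNA within that gene, where replicate 3, the list with the fewest cDNAs, has the fewest, and Rn18s-rs5 marks 4 ribosomal positions; the dashed line is the limit of 256 molecules set by the random bases.

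Several small RNAs were in the other 4 lists and not in replicate 3. Rny1, Rny3, Rn7sk, Snord14a and Snord118 were picked for this, and their counts are not scaled to the size of the list. Some small RNAs went the other way. Snord87 had 6 cDNAs in replicate 3, against 0, 0, 0 and 1 in replicates 1, 2, 4 and 5, and Gm25682 had 9, against 0, 0, 5 and 5. Rny1, a Y RNA, which binds the Ro protein, had 0 listed cDNAs in replicate 3, against 109, 56, 112 and 24 in replicates 1, 2, 4 and 5. Rny3, the other Y RNA, had 0 in replicate 3, against 82, 116, 55 and 40. Rn7sk, the RNA of the 7SK particle that holds back transcription elongation, had 0 in replicate 3, against 46, 100, 93 and 40. Snord14a and Snord118, both snoRNAs, which guide or assist ribosomal RNA processing, were likewise at 0 in replicate 3, against 90, 52, 137 and 72 for Snord14a and 17, 31, 63 and 26 for Snord118. The snoRNA in Eif4g2 had 340 cDNAs in replicate 3, against 3414, 2462, 2592 and 1930, and was the only snoRNA in all 5 lists. Sites in Eif4g2, nearly all of them in this snoRNA, came to 260 per 10000 cDNAs in replicate 3, against 314 to 1110 in the other 4. Of 430 tRNA genes, 47 had a site in replicate 3, against 125, 109, 162 and 119 in replicates 1, 2, 4 and 5. Protein-coding genes with a site were likewise fewer in replicate 3, at 1056 of 21900, against 1955, 2524, 3215 and 2256.

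Several tall positions of the other lists had no cDNA in replicate 3, whose depth was also the lowest. Positions were taken that each of the other 4 lists held, with 40 or more cDNAs there together. By the pooled count, 43 of them had 0 cDNAs in replicate 3, against 14, 4, 0 and 1 for replicates 1, 2, 4 and 5. Each replicate had its own set. Before the minimum of 40 it held 1726 positions for replicate 3, against 1030, 812, 777 and 808. How many reached 40 cDNAs, in all or by class, was not counted, so no share can be given. Of these 43, 13 were in tRNA, 9 in small RNA, 3 in ribosomal RNA, 3 in protein-coding genes, 11 in no gene and the rest in other classes. The position chr10:30811174 on the plus strand, in the glutamate tRNA gene n-TEctc9, had 0 cDNAs in replicate 3, against 85, 17, 66 and 22 in replicates 1, 2, 4 and 5. Elsewhere in that tRNA gene replicate 3 had sites, with 32 cDNAs over 7 positions.

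Positions outside genes made up the largest part of what was higher in replicate 3. Of its cDNAs, 28.2% lay outside any RefSeq gene on either strand, against 13.3%, 14.1%, 11.5% and 13.8% in replicates 1, 2, 4 and 5. A further 3.88% lay on the strand opposite to a gene, against 1.14%, 2.02%, 1.61% and 1.86%. At sites in exactly 1 protein-coding gene, and one of known strand, 93.4% of the cDNAs of replicate 3 were on the strand of the gene (Wilson interval 92.6 to 94.1), against 97.3%, 97.4%, 97.5% and 96.7%. Overlap with non-coding genes on the other strand was not excluded. Replicate 3 thus had the smallest share on the strand of the protein-coding gene, although all lists kept most cDNAs on it. Of the positions outside genes, 53.3% of those of replicate 3 were in another list, against 38.5% to 50.5% for the other 4, over lists of their full and unequal length.

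Some of these cDNAs were gathered at a few places. The region chr3:5860-5880 kb held 277 cDNAs in replicate 3, against 156, 942, 653 and 366 in replicates 1, 2, 4 and 5. The region chr11:109000-109020 kb held 243 in replicate 3, against 177, 691, 840 and 461. Per 10000 cDNAs these came to 212 in replicate 3, against 50.7 to 181 in the other 4, for the first region, and to 186, against 57.5 to 133, for the second. Both were highest in replicate 3 and present in all 5 lists. The region chr11:62240-62260 kb differed more, with 115 cDNAs in replicate 3, against 19, 52, 17 and 10. No RefSeq gene covered these positions on their strand, and whether they hold repeated sequence was not tested.

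Genes with at least 1 site numbered 1174 in replicate 3, against 2125, 2755, 3507 and 2441 in replicates 1, 2, 4 and 5, and 7775 in the pooled list. Protein-coding genes with a site were 1056 of 21900 in replicate 3 (4.82%), against 8.93%, 11.5%, 14.7% and 10.3% in replicates 1, 2, 4 and 5, and 6897 in the pooled list (31.5%). In all 5 lists there were 283 genes, 253 of them protein-coding, which is 1.16% of protein-coding genes. A gene of replicate 3 held 3.48 sites on average, against 6.67, 8.59, 11.3 and 7.82 in the other 4. Of the genes of replicate 3, 75.3% were in another list, against 78.4%, 76.2%, 71.9% and 80.8%, which put replicate 3 within the range of the others. In 435 genes there were sites in replicates 1, 2, 4 and 5 and none in replicate 3. Left without replicate 3, 718 genes were in all 4 lists. Along the gene, 12.6% of the sites of replicate 3 in protein-coding genes lay in the first 0.1 of its length, against 11.9%, 11.8%, 11.3% and 11.6% in replicates 1, 2, 4 and 5, so the lists were alike in this.

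The number of cDNAs per gene was ranked differently in replicate 3. Over the 7775 genes with a pooled site, Spearman's rho was 0.204 to 0.216 for the 4 pairs with replicate 3 and 0.372 to 0.464 for the 6 pairs without it. Over the 283 genes in all 5 lists it was 0.282 to 0.450 for pairs with replicate 3 and 0.634 to 0.810 for the others. Over the 734 shared positions it was 0.369 to 0.550 with replicate 3 and 0.531 to 0.723 without it. These values describe genes and positions, which are not replicates and share mapping and transcript abundance, and genes absent from a list counted as 0 among the 7775. In the control germinal centre libraries, protein-coding genes in replicate 3 had a median level of 45.9 CPM (counts scaled to the library total), against 65.7, 64.7, 65.0 and 70.0 CPM for those in replicates 1, 2, 4 and 5. Genes in all 5 lists had a median of 109 CPM and genes in no list 0.0267 CPM.

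Of 23 genes that PTBP1 is known to regulate in other cells, 13 had a site in the pooled list (56.5%, against 31.5% of all protein-coding genes), and 4 had one in replicate 3, against 6, 7, 8 and 6 in replicates 1, 2, 4 and 5. As shares of the 23 genes these are 17.4% in replicate 3, where 4.82% of all protein-coding genes had a site, against 26.1% to 34.8% in the other 4, where 8.93% to 14.7% of all did. Ptbp2 and Mbnl1 were in all 5 lists. Summed over the list, replicate 3 had 16 cDNAs, or 12.3 per 10000 cDNAs, against 72.9 ± 20.4 per 10000 in the other 4 (SD, n = 4, range 55.2 to 94.9). Mbnl1 alone gave 9 of the 16 in replicate 3, against 205 of 292, 220 of 290, 355 of 455 and 290 of 355. The sum thus mostly describes this gene. Members with no site in any list included Tpm1, Tpm2, Src, Dlg4, Fas, Fgfr1, Fgfr2 and Cd40lg, several of them genes of muscle, neurons or other cells. Hps1 and Hif1a were in the pooled list and in no replicate list.

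In the PTB family, Ptbp1, whose protein limits its own mRNA, had 0 listed cDNAs in replicate 3, against 8, 13, 2 and 3 in replicates 1, 2, 4 and 5, and 47 in the pooled list. Ptbp2, the neuronal paralogue that PTBP1 represses, had 3 in replicate 3, against 24, 16, 46 and 12, and 220 pooled. Ptbp3, the paralogue of blood cells, had 0 in replicate 3, against 29, 17, 21 and 33, and 273 pooled. Per 10000 cDNAs, Ptbp2 stood at 2.30 in replicate 3, against 2.90 to 7.80 in the other 4. All 3 genes were in each of the 4 larger lists and 1 of them was in replicate 3, and at such counts a gene can be at 0 in the smallest list through its depth, which was not tested. The largest cluster of Ptbp2, chr3:119743650-119743692 on the minus strand, held 0 cDNAs in replicate 3, against 0, 7, 12 and 8.

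Pkm, the pyruvate kinase gene whose mutually exclusive exons PTBP1 helps to choose, had 0 listed cDNAs in replicate 3, against 25, 18, 11 and 16 in replicates 1, 2, 4 and 5. Its largest cluster, chr9:59673814-59673845 on the plus strand, held 0 in replicate 3, against 6, 5, 7 and 4. Mbnl1, another splicing regulator, had 9 cDNAs in replicate 3, against 205, 220, 355 and 290, and was the member with the most cDNAs in every list. Per 10000 cDNAs, Mbnl1 stood at 6.89 in replicate 3, against 42.4 to 70.1 in the other 4. Actn1 and Vegfa each had 2 cDNAs in replicate 3 and 0 in replicates 1, 2, 4 and 5. The Vegfa sites were not in the pooled list. Gabbr1, Rtn4, Apaf1 and Flna had 0 in replicate 3 and between 0 and 14 in the other lists.

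Other splicing factors together held a smaller share of the cDNAs of replicate 3 than of the other lists. Of 33 hnRNP and SR genes, which encode the proteins that bind nascent RNA and steer exon choice, 31 had a pooled site, and 5 had a site in replicate 3, against 21, 18, 23 and 20. The share of the list with a site was 15.2% in replicate 3, where 4.82% of all protein-coding genes had one, against 54.5% to 69.7% in the other 4, where 8.93% to 14.7% of all did. Hnrnpa2b1 had 4 cDNAs in replicate 3, against 30, 20, 72 and 42 in replicates 1, 2, 4 and 5. Tra2b, an activator of exon inclusion, had 5 in replicate 3, against 5, 14, 51 and 15, and its share of the cDNAs was 1.08 times the mean of the other 4. Srsf11 had 6 in replicate 3, against 26, 47, 38 and 8, and these 3 with Tra2a were the members in all 5 lists. Hnrnpk had 0 in replicate 3, against 14, 24, 30 and 10. The list came to 15.3 cDNAs per 10000 in replicate 3 and 54.2 ± 11.1 in the other 4 (37.8 to 61.1). Of its 28 members in any of the other 4 lists, 27 had a share in replicate 3 below the mean of the others, and Tra2b did not. Members entered this count only through the other 4 lists, and a member at 0 in replicate 3 falls below their mean by construction. Replicate 3 was below each of the other 4 lists for 7 of the 28.

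Several transcription factors of the B lineage were named by rules that use replicate 3 itself. Pax5 and Pou2f2 were named for a low ratio to the other lists. Bach2, and in part Foxp1, were named for having no site in replicate 3. Their low shares follow from this choice and are a description only. Ebf1 was named for its number of cDNAs, and Ikzf1 is from the list of B cell receptor signalling and activation below. Ebf1, which specifies B cells, had 46 cDNAs in replicate 3, against 507, 922, 1014 and 693 in replicates 1, 2, 4 and 5. Pax5, which fixes B cell identity, had 3 in replicate 3, against 87, 166, 216 and 126. Foxp1, needed in early B cells, had 0 in replicate 3, against 177, 325, 336 and 106, and was the gene with the most pooled cDNAs that replicate 3 did not list. Bach2, a repressor that holds off plasma cell fate, had 0 in replicate 3, against 108, 145, 369 and 129. Pou2f2, which encodes an octamer-binding factor, had 2 in replicate 3, against 48, 153, 169 and 89, and Ikzf1, which encodes Ikaros, had 8, against 66, 193, 201 and 82. Scaled to the size of each list, Ebf1 stood at 35.2 per 10000 in replicate 3, against 123 to 178 in the other 4. Ikzf3, which encodes the related factor Aiolos, went the other way, with 11 cDNAs in replicate 3, against 0, 60, 55 and 17, and a share 1.51 times the mean of the others. Prdm1, which encodes the plasma cell factor Blimp-1, stood at 2.30 per 10000 in replicate 3, against 0 to 2.31. Ikzf3 and Prdm1 are named here after their values were seen.

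Most signalling genes of the B cell receptor held a smaller share of replicate 3 than of the other 4 lists on average. Of those below, Syk and Lyn were named for having no site in it and Ptprc for its low ratio. Syk, the kinase that carries the receptor signal, had 0 listed cDNAs in replicate 3, against 56, 131, 206 and 65 in replicates 1, 2, 4 and 5. Lyn, another receptor kinase, had 0 in replicate 3, against 19, 86, 126 and 22. Prkcb, the protein kinase C that activates NF-kB in B cells, had 28 in replicate 3, against 270, 458, 600 and 292. Ptprc, which encodes CD45, had 4 in replicate 3, against 114, 135, 303 and 202. Blnk, an adaptor downstream of Syk, had 3 in replicate 3, against 48, 84, 96 and 80. Pik3ap1, an adaptor of phosphoinositide kinase, differed in order, with 11 in replicate 3, against 16, 32, 15 and 21. Of the 34 genes of B cell receptor signalling and activation, 31 had a pooled site and 10 a site in replicate 3, against 20, 24, 26 and 23. These are 29.4% of the list in replicate 3, where 4.82% of all protein-coding genes had a site, against 58.8% to 76.5% in the other 4, where 8.93% to 14.7% of all did. Of 30 members in any of the other 4 lists, 27 had a share in replicate 3 below the mean of the others, the exceptions being Pik3ap1, Ikzf3 and Prdm1. Here too, members entered only through the other 4 lists, and those at 0 in replicate 3 fall below the mean by construction. Replicate 3 was below each of the other 4 lists for 15 of the 30. The list came to 58.2 per 10000 in replicate 3, against 267 ± 36.4 in the other 4 (235 to 313).

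The label of B cells was checked against marker genes. All 15 B cell markers had a pooled site, and 6 had one in replicate 3, against 11, 11, 13 and 12 in replicates 1, 2, 4 and 5. This is 6 of 15 markers in replicate 3, where 4.82% of all protein-coding genes had a site, against 73.3% to 86.7% of them in the other 4, where 8.93% to 14.7% of all did. They held 48.3 cDNAs per 10000 in replicate 3, against 274 ± 32.2 in the other 4 (226 to 296). Counted per 10000 cDNAs in protein-coding genes, they held 131 in replicate 3, against 494 on average in the other 4. Ebf1 alone gave 46 of their 63 cDNAs in replicate 3, against 507 of 859, 922 of 1522, 1014 of 1868 and 693 of 1223. Markers of T cells (12 genes) were at 0 in all 5 lists, and among 12 markers of myeloid cells only Itgam was listed, with 2 cDNAs in replicate 3. The B cell markers not listed in replicate 3 included Cd79a, Cd79b, Ms4a1, Cd74, Cd37, Cd72, Fcer2a and Cr2. Ighm, the constant region of IgM, had 4 in replicate 3, against 36, 35, 113 and 43, and Ighd, that of IgD, had 3, against 4, 34, 34 and 33. These 2 were the only genes of 12 immunoglobulin constant regions in replicate 3, against 3, 3, 3 and 2 in replicates 1, 2, 4 and 5. In cDNAs, the list came to 5.36 per 10000 in replicate 3, against 16.0 ± 2.74 in the other 4 (13.6 to 18.4).

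The long non-coding RNAs Xist and Malat1 carried many cDNAs in the other lists. Xist, which coats the inactive X chromosome of female cells, had 15 in replicate 3, against 425, 483, 934 and 606 in replicates 1, 2, 4 and 5. Its largest cluster, chrX:103466764-103467428 on the minus strand, held 10 in replicate 3, against 258, 335, 569 and 389. Malat1, a nuclear speckle RNA, had 16 in replicate 3, against 265, 306, 529 and 265. Each made up a smaller share of replicate 3 than of any other list. The 12 measured genes of the non-coding list came to 23.7 cDNAs per 10000 in replicate 3, against 221 ± 30.2 in the other 4 (182 to 248).

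**Figure D4:**
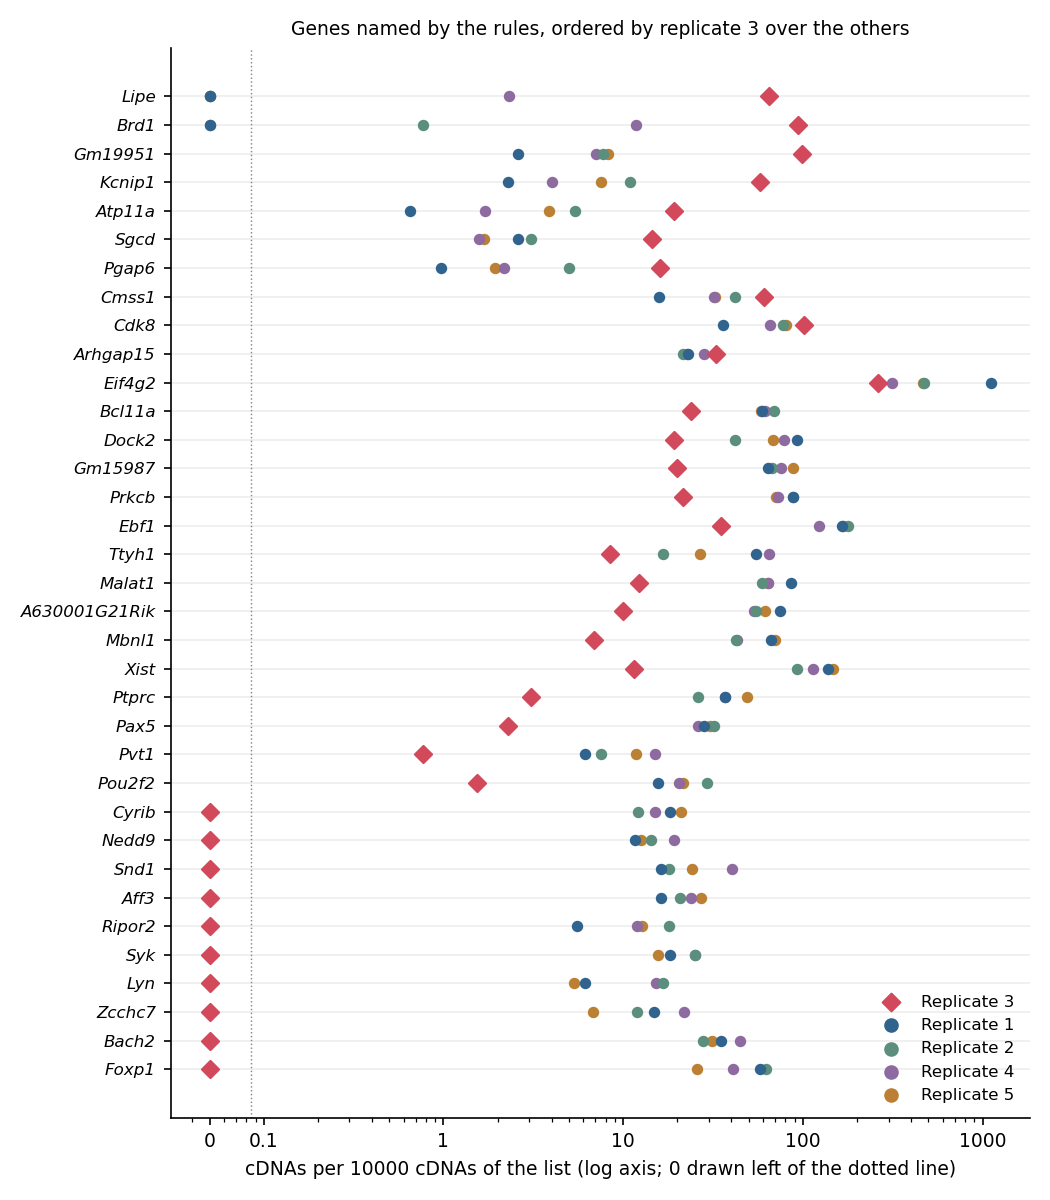
cDNAs per 10000 cDNAs of the list (log axis, with values of 0 left of the dotted line) for the genes with the most cDNAs in a list and those with the highest and lowest ratio of replicate 3 to the other 4, ordered by that ratio. Foxp1, Bach2, Syk and Lyn, chosen wholly or in part for having no site in replicate 3, are at 0 in it. Gm19951, Kcnip1 and Atp11a, chosen for a high ratio, lie above all other lists in replicate 3.

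A smaller set of genes was higher in replicate 3. The non-coding gene Gm19951 had 130 cDNAs in replicate 3, against 8, 40, 58 and 34 in replicates 1, 2, 4 and 5, which is 15.6 times the mean share of the other 4. Kcnip1, a potassium channel partner, had 75 in replicate 3, against 7, 57, 33 and 31, or 9.28 times. Atp11a, a membrane lipid flippase, had 25 in replicate 3, against 2, 28, 14 and 16, or 6.60 times. Sgcd and Pgap6 followed at 6.5 and 6.37 times. These 5 were named for having the largest ratios among genes in all 5 lists, so the ratios are a description. At the other end of the same order were Pou2f2 at 0.0704 times, Pvt1 at 0.0755, Pax5 at 0.0786, Ptprc at 0.0825 and Xist at 0.0936.

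Some genes with many cDNAs in every list kept their place in replicate 3. Cdk8, a kinase of the Mediator complex, had 132 cDNAs in replicate 3, against 110, 405, 545 and 333 in replicates 1, 2, 4 and 5. Cmss1 had 79 in replicate 3, against 49, 217, 263 and 134. Arhgap15, a regulator of Rac, had 43 in replicate 3, against 71, 112, 233 and 94. Their shares in replicate 3 were 1.55 times the mean share of the other 4 for Cdk8, 1.98 for Cmss1 and 1.38 for Arhgap15. Dock2, a Rac activator of lymphocytes, had 25 in replicate 3, against 284, 217, 651 and 282, or 0.272 times. Bcl11a, a B cell transcription factor, had 31, against 183, 360, 511 and 241, or 0.381 times. The other genes with many pooled cDNAs that replicate 3 did not list were Snd1, Aff3, Ripor2, Zcchc7, Nedd9 and Cyrib, which had 600 to 1083 pooled cDNAs.

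Genes differed in how their sites were spread along the gene. In the 5 lists together, the sites of Ebf1 fell into 293 clusters, of which the largest held 3.21% of its cDNAs, and replicate 3 had a site in 12 of the clusters of the gene. Prkcb had 192 clusters, Foxp1 150, Mbnl1 137 and Bach2 134. Cdk8 had 7 clusters, of which the largest, chr5:146260990-146261094 on the plus strand, held 55.6% of its cDNAs, with 70 in replicate 3, against 51, 235, 307 and 185. Kcnip1 had 4 clusters, Sgcd 2, and Atp11a and Pgap6 1 each. Several genes went the other way. Ttyh1 had 1 cluster in the other 4 lists and a share in replicate 3 of 0.206 times their mean, Hnrnpa2b1 had 6 clusters and 0.377 times, and Eif4g2 had 2 clusters and 0.440 times. Arhgap15 had 100 clusters in the other 4 lists and a share of 1.38 times.

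Across the 239 protein-coding genes in all 5 lists with 20 or more cDNAs in the other 4, the ratio of replicate 3 to the others fell with the number of clusters (Spearman's rho −0.722) and rose with the share of cDNAs in the largest cluster (0.550). With gene length rho was −0.139. The 103 genes whose share was at or above the mean of the others had a median of 7 clusters and 36.4% of their cDNAs in the largest. The 136 genes below it had a median of 21.5 clusters and 16.7%. These measures share the counts of the other 4 lists, and genes that replicate 3 did not list are left out, so the values describe these genes alone. A gene with few cDNAs in the other 4 lists entered only if its ratio was not low, so a falling relation can arise from this choice. How far this choice, the site calling at low depth or the library itself set the relation was not tested.

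**Figure D5:**
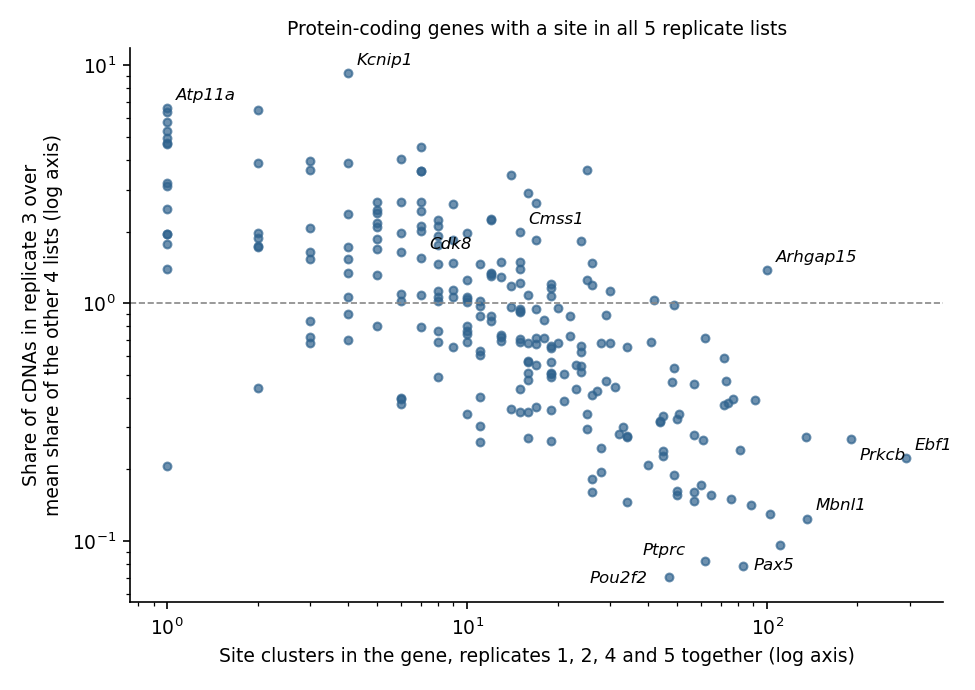
Number of site clusters in replicates 1, 2, 4 and 5 together (horizontal, log axis) against the share of cDNAs in replicate 3 over the mean share of the other 4 lists (vertical, log axis), 1 point for each of 239 protein-coding genes in all 5 lists. Atp11a with 1 cluster and Kcnip1 with 4 lie above the dashed line of equal share, and Ebf1, Prkcb, Mbnl1 and Pax5 lie below it.

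Replicates 3 and 4, which share a run name in the file headers, had tall positions in common that no other list held. At 10 positions of 20 or more pooled cDNAs the whole pooled count came from exactly 2 lists, and all 10 were of this pair. The highest, chr15:88733808 on the minus strand in Brd1, a gene for a chromatin reader, had 123 cDNAs in replicate 3 and 97 in replicate 4. A position outside genes, chr10:127379852 on the minus strand, had 76 in replicate 3 and 18 in replicate 4. A position in Lipe, chr7:25395865 on the minus strand, had 85 in replicate 3, 19 in replicate 4 and 1 further pooled cDNA. Replicates 1 and 5, the other pair with a common run name, had no such position, and the tallest position held by any other pair alone had 15 pooled cDNAs. Brd1 and Lipe were among the 10 genes with the most cDNAs of replicate 3 through these single positions, and a part of the shared run in them was not tested.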

How the data were processed

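The deposited iCLIP score is a whole number of cDNAs per position, unscaled, whose sign gives the strand. Bowtie and GRCm38 are named in the submitters' processing notes, without the version of Bowtie. The file headers state that sites passed an FDR under 0.05 from 100 permutations, with a 15 nt neighbourhood, regions treated separately, on mm10 with Ensembl 75. Each replicate was called alone, and the pooled list was called on the summed cDNAs of the 5 replicates. The pooled header's track name also holds the word regionAsOne, so its treatment of regions is uncertain. The deposited mRNA values are raw counts per gene, which the authors made with Trim Galore 0.4.2, HISAT2 and HTSeq, per the submitters' processing notes. CPM was computed from them here, as the mean over 8 control libraries, which gave a level for 20711 of 21900 protein-coding genes.

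Sites were matched between lists by identical position and strand. Clusters joined sites within 15 nt on a strand. Sites were assigned to RefSeq genes (GRCm38.p6, the same assembly as mm10) by gene span and strand. For 4408 protein-coding genes the tables used gave no strand, among them Eif4g2, Ptbp3 and Lyn, and sites on both strands were assigned to them. Overlapping genes and copies of ribosomal and transfer RNA are therefore uncertain, and exons were not told apart from introns. Ribosomal RNA was taken as Rn18s-rs5 with 5000 bases on each side and annotated rRNA genes.

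No test between groups was made, since the 5 samples form 1 group. Dixon's ratio was used only to flag a list far from the others. Shares are given with 95% Wilson intervals for counting error and with the SD over lists. The genes named are the PTBP1 target list, the 10 genes with the most cDNAs in each list, the 5 highest and 5 lowest ratios of replicate 3 to the others, the 10 genes with the most pooled cDNAs in the 4 other lists alone, and the 10 tallest positions in all 5 lists. Results for some list members are not reported here. The members, gene lists and comparisons were chosen with earlier results of these data known. Software was Python 3.11.15 with pandas 2.3.3, numpy 2.4.6, scipy 1.17.1 and matplotlib 3.10.9, and the scripts were tested on simulated data. Alternatives tried were other matching distances, cDNA minimums, list lengths, gene assignments, denominators and leaving out each replicate.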

Additional observations from a re-analysis of the deposited data

Results flagged for a closer look

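Of 29 measures compared across the 5 lists, 9 had 1 list far from the others, and in all 9 it was replicate 3. A list was taken as far when its gap to the nearest other list was more than 0.71 of the whole range, Dixon's 95% critical value for 5 samples, which chance passes in about 1 of 20 groups. The 29 measures share the same cDNAs and are not independent.

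Replicate 3 was far from the others in cDNAs per site, at 2.102, against 1.752 to 1.812 in the other 4 lists. It was also far in the share of cDNAs in sites of 10 or more cDNAs, at 33.21%, against 18.64% to 22.74%. The share of its sites in the pooled list was 85.65%, against 93.34% to 95.53%, and the share of its cDNAs in no RefSeq gene was 32.11%, against 13.1% to 16.12%.

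On the RNA side, 93.42% of the cDNAs of replicate 3 in protein-coding genes were on the strand of the gene, against 96.67% to 97.49%. In promoter windows, 27.12% of its sites were at T, against 52.11% to 55.32%. The median rank correlation with the other lists over genes was 0.2064, against 0.3746 to 0.419, the median control level of its genes was 45.88 CPM, against 64.7 to 69.95 CPM, and the B cell markers held 48.26 cDNAs per 10000, against 226.5 to 295.6. Sites and cDNAs per list were not far by this measure, since replicate 4, the largest list, stretched the range.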

How the results depend on the processing

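Of 83 alternative values of 16 results, 43 moved by less than the spread between lists (counts by less than 1.5 times), 40 moved by more, and 0 changed sign, which shares and counts of sites cannot do. The order of replicate 3 and the mean of the other 4 lists turned round in 7 of 31 alternatives that gave both: for the share of sites in another list within 15 and 30 nt, with at least 5 and 10 cDNAs and with cut lists, and for the share in the pooled list with at least 5 and 10 cDNAs. For values that moved, the cause was not tested unless the construction shows it. No paired analysis was possible because all 5 replicates belong to 1 group and nothing is compared between groups. The 734 positions in all 5 lists became 3957, 5315 and 6225 sites when matched within 5, 15 and 30 nt, and 88 and 43 with sites of at least 5 and 10 cDNAs. Leaving out each replicate gave 777 to 1726 positions and 301 to 718 genes, the highest without replicate 3. The 283 genes became 15 and 5 with sites of at least 5 and 10 cDNAs. The share of sites in another list was 38.5% in replicate 3 and 30.3% on average in the other 4. It was 50.4%, 52.5% and 53.6% in replicate 3, against 47.7%, 53.1% and 55.6%, within 5, 15 and 30 nt. It was 92.5% and 96.4%, against 95.1% and 98.4%, with at least 5 and 10 cDNAs, and 25.9%, against 43.7%, with lists cut to equal length. Leaving out each replicate gave 34.02% to 36.98% in replicate 3 and 24.3% to 29.7% in the others. The share in the pooled list was 99.7% and 99.4%, against 99.3% and 99.2%, with at least 5 and 10 cDNAs.

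The median rank correlation over the genes in every list was 0.378 in replicate 3, against 0.701. The share on ribosomal, mitochondrial, transfer and small RNA was 10.2%, against 7.16%, counted in sites, and 20.9%, against 11.1%, for ribosomal and mitochondrial RNA alone, an alternative chosen after seeing the data. The share in genes, 41.2% against 61.1%, was 51.8% in replicate 3 without ribosomal RNA, 56.2%, against 80.5%, without all these RNAs, and 61.02%, against 79.5%, in sites, also chosen after seeing the data. Replicate 3 thus stayed below the others under each of these. Pyrimidines around the sites of the other 4 lists came to 60.2% with cut lists and 60.1% with 1 site per promoter, the last also chosen later. Replicate 3 had the fewest cDNAs, 13055, and how far depth accounts for its differences from the others was not tested.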
